A study of Homo sapiens with 20 samples.

Results

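TENM2, CMTM3, PLXDC2, MYADM, PLTP, MELTF, FAM20C and AKAP12 are 8 of the 57500 genes counted in 20 RNA-seq libraries of NTERT keratinocytes. They were selected on measured values, because their counts were far lower in cells lacking the eIF2 kinase GCN2 (gene EIF2AK4) than in wild-type (WT) cells, so that difference is described here without a test. The 8 genes lie on 8 different chromosomes, and each was found by its Ensembl identifier in every library. NTERT is a human keratinocyte line immortalized with hTERT. WT cells carried a control guide. GCN2KO cells were a pool edited with CRISPR/Cas9 rather than a single clone. Cells of either genotype were left unwounded or given a high-density wound (HDW), made by drawing pipet tips across the monolayer in perpendicular directions, and HDW cells were harvested 6 h later. The 4 groups (WT and GCN2KO, each unwounded or HDW) had 5 replicates apiece and were grown by the same protocol into differentiated monolayers. The paper states from earlier work that GCN2 loss can delay this differentiation, but that it still takes place at a later time. The study counts its replicates as biological, but whether they came from different days or passages is not given in the sources used here, so p-values measure the spread between these samples.

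GCN2 phosphorylates the translation initiation factor eIF2 when uncharged tRNAs accumulate, which lowers general protein synthesis and raises translation of selected mRNAs such as that of the transcription factor ATF4. In skin, keratinocytes at a wound move forward as a connected sheet, and cell-surface adhesion proteins, membrane organization and secreted matrix enzymes all take part. The 8 genes encode proteins of several kinds. TENM2, PLXDC2, CMTM3 and MYADM are transmembrane proteins, MELTF is held at the cell surface by a lipid anchor, PLTP is secreted, FAM20C is a kinase of the secretory pathway, and AKAP12 is a scaffold under the plasma membrane.

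The libraries held 14083504 to 34611570 counts (median 32243580.5). Counts were divided by library sizes scaled with the trimmed mean of M values and are given as normalized read counts. EIF2AK4, the edited gene, had 4356 ± 149 normalized counts in WT unwounded cells (mean ± SD, n = 5) and 894 ± 61.8 in GCN2KO unwounded cells, so that 20.5% ± 1.42 of its RNA remained. After HDW the means were 4194 ± 129 and 874 ± 66.5, with 20.8% ± 1.58 remaining, and every GCN2KO library was below every WT library. Keratinocyte markers (13 genes, among them KRT5, KRT14 and TP63) summed to 597266 to 620666 normalized counts in WT unwounded and 534885 to 617694 in GCN2KO unwounded libraries. The sum rests largely on KRT5, and single markers differed both ways. At a log2 fold change of at least 1 and an adjusted p of at most 0.05 (edgeR), 1 was called higher and 2 lower of 13. Unwounded means in WT and GCN2KO cells were 233788 and 329178 for KRT5, 63318 and 35133 for KRT14, 82944 and 32320.0 for COL17A1, 50246 and 25991 for ITGB4 and 3126 and 11071 for the differentiation marker IVL. The means of KRT5, KRT14 and ITGB4 differ by less than the fold threshold. KRT1 was at 22.4 and 11.2. Fibroblast markers (10 genes) summed to 3005 to 3902 in WT and 2207 to 2540.0 in GCN2KO unwounded libraries, mostly from FAP (2454 and 1526) and COL1A1 (892 and 736), while POSTN was at 0 throughout and 5, POSTN included, never passed 10 counts. The immune list was mostly CD14 (1683 and 785), the 1 gene of it called lower, with PTPRC, CD3E and LYZ at 2 counts or fewer, and the endothelial list summed to 10.9 to 38.7 over all libraries. The melanocyte markers TYR and SOX10 were also at 0. The summed melanocyte markers were 130.4 to 171 in WT unwounded and 351 to 517 in GCN2KO unwounded libraries, most of it from MITF. The part of these marker differences in the results below was not tested.

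The level left in GCN2KO cells differed widely among the 8 genes, and only some were close to silent. In unwounded cells MYADM kept 2.38% ± 0.999 of its WT level (SD over the 5 GCN2KO libraries), TENM2 kept 4.18% ± 0.771, PLXDC2 6.40% ± 1.43 and CMTM3 9.68% ± 0.869. FAM20C kept 11.2% ± 2.36, PLTP 15.9% ± 1.82, MELTF 20.3% ± 1.95 and AKAP12 23.8% ± 12.6. GCN2KO libraries held raw counts of only 5 to 13 for MYADM, 10 to 21 for TENM2 and 18 to 41 for PLXDC2 without wounding. PLTP still had 599 to 796 normalized counts in them, MELTF 346 to 445 and FAM20C 209.6 to 343, so a description as nearly silent does not hold for these genes, nor for AKAP12 by the share that remained. All 8 were lower in both wounding states, as the choice of genes fixes. Every GCN2KO library was below every WT library of the same state, which this choice favors, and the share of all genes separated in this way was not counted. Over all genes tested, 8.22% were lower at a log2 fold change of at least 1 and an adjusted p of at most 0.05 in unwounded GCN2KO against WT cells, and 7.83% after HDW. By adjusted p alone the shares were 33.1% and 35.8%. The libraries are of bulk RNA from an edited pool, so a lower level in each cell and fewer cells that keep the gene cannot be told apart.

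**Figure D1:**
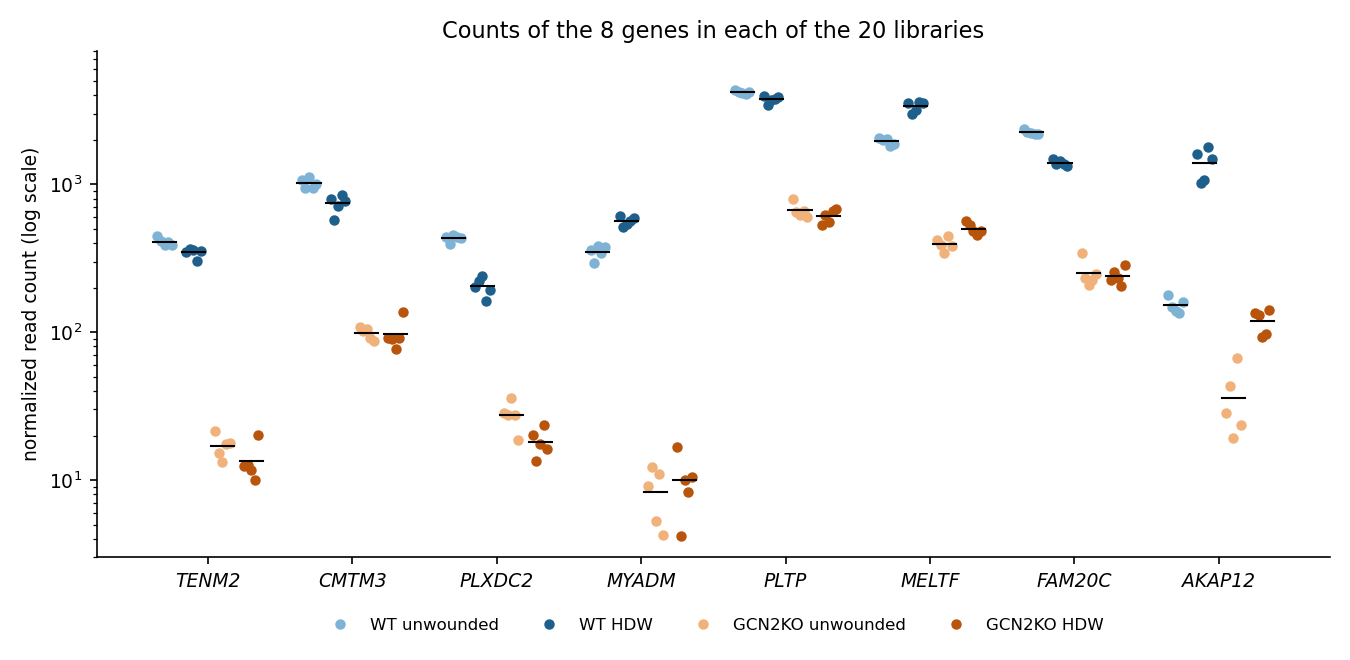
Normalized read counts (log axis) of the 8 genes, with 1 point per library, colored by group, and a bar at the mean of 5 libraries. GCN2KO points lie below the WT points of the same state for every gene, and MYADM, TENM2 and PLXDC2 have GCN2KO unwounded means of 8.35, 17.1 and 27.7.

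The sequence just upstream of the annotated starts is shown for 5 of the genes low in GCN2KO cells and for AKAP12, the gene that responded most to HDW, so that the letters behind the motif counts below can be seen. Windows with annotated exonic bases are not printed, which leaves out PLXDC2 and MELTF. A further window each of MYADM, TENM2 and PLTP had no such base and is not printed either. Those of TENM2 and PLTP held no motif match in their last 120 bases, so the lines below favor windows with matches. RefSeq (GRCh38.p14) lists 16 starts for the 8 genes, and the 250 bases before each were searched on both strands for 7 motifs. Each line gives the last 120 bases before 1 start, 5′ to 3′, with no annotated exonic base, and capitals mark the motif matches.
MYADM, chr19:53867763-53867882 (plus strand): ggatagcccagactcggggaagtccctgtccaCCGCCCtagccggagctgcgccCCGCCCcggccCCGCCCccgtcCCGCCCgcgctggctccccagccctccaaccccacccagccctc
TENM2, chr5:167073122-167073241 (plus strand): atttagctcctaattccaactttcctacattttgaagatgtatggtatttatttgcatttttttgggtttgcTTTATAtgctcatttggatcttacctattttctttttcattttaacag
CMTM3, chr16:66604584-66604703 (plus strand): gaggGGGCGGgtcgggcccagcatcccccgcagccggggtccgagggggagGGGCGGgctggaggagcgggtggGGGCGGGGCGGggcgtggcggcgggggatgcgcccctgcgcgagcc
PLTP, chr20:45912156-45912275 (minus strand): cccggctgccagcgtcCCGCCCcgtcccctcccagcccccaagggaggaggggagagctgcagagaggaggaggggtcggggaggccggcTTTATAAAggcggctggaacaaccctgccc
FAM20C, chr7:192451-192570 (plus strand): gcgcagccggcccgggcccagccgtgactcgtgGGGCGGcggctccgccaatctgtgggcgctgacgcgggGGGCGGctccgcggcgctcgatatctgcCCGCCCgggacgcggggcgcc
AKAP12, chr6:151239847-151239966 (plus strand): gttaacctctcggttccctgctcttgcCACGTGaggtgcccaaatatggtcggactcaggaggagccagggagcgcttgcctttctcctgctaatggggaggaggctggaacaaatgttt
AKAP12, chr6:151325411-151325530 (plus strand): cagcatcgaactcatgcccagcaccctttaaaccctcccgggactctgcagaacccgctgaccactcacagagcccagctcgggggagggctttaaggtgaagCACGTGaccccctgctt

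GGGCGG, the Sp1 letters, occurred in 11 of the 16 windows, against 42.5% of the 34943 windows of this length in the table. These windows belong to 6 of the 8 genes. The shares of all windows here do not apply to counts of genes, because a gene with up to 3 windows has more chances of a match. CMTM3 windows chr16:66604454-66604703 and chr16:66604481-66604730 overlap and hold 5 matches each, so the 11 windows are not all separate. The MYADM window above held 6 matches over its 250 bases, and the CMTM3 window 5. CACGTG, the E-box, was found before all 3 starts of AKAP12 and before no start of the other genes, against 6.32% of all windows. TATAAA was found in 3 windows, 1 each of TENM2, MYADM and PLTP (10.8% of all windows), and in the PLTP window it overlaps its reverse complement. GGAATG, the letters bound by TEAD factors, was found in 4 windows, 1 each of TENM2, CMTM3, PLTP and AKAP12 (11.9% of all windows). TGATGNAAN, the ATF4 composite element, TGANTCA, the AP-1 site, and TTGCNNAA, a C/EBP site, were found in none of the 16 windows, against 3.14%, 6.59% and 9.06% of all windows. Base composition differed widely among the windows. The first TENM2 window held 1 CpG and was 29.2% G or C, whereas the FAM20C window held 38 CpG and was 78.4% G or C, with medians of 11 and 58.0% over all windows. The TENM2 window also ends in a run of pyrimidines followed by AG, letters that stand before internal exons as well. Which start these cells use was not examined, and a match is a description of letters only.

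All 8 genes changed after HDW in WT cells, in both directions. AKAP12, MELTF and MYADM were higher, and PLXDC2, FAM20C, CMTM3, TENM2 and PLTP were lower (edgeR quasi-likelihood test, Benjamini-Hochberg adjusted p of at most 0.05). Over all 15348 genes tested, 26.1% were higher and 25.2% lower by this rule. With a log2 fold change of at least 1 as well, AKAP12 was higher (2.62% of all genes) and PLXDC2 lower (1.55%). In GCN2KO cells AKAP12 and MELTF were higher after HDW, and PLXDC2 was lower by a call that most alternatives lost, while 11.9% of 15791 genes were higher and 10.8% lower. These shares come from 1880 and 1706 genes, counts that ran from 1183 to 2332 and from 887 to 2185 with 1 library left out. AKAP12 alone also passed the fold threshold in GCN2KO cells (0.475% of all genes), and none of the 8 passed it downward (0.196%). The median log2 fold change after HDW of the 8 genes was -0.19 in WT cells and -0.022 in GCN2KO cells, against -0.0024 and -0.00097 over all genes tested. The response to HDW differed between genotypes for AKAP12, MELTF and FAM20C. Of the 16536 genes tested for this interaction, 11.2% were higher and 12.5% lower, as against 1 and 2 of the 8. The genes were chosen on the difference between genotypes, so the interaction is not fully independent of the choice, and the comparisons share libraries.

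**Figure D2:**
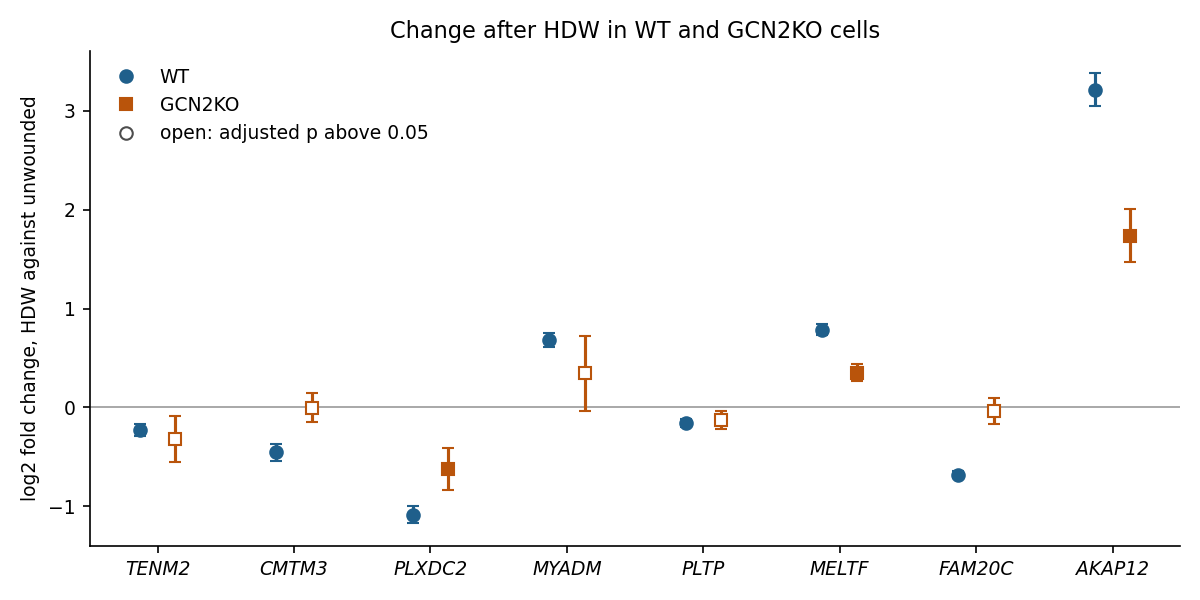
Log2 fold change of HDW against unwounded cells (± SE, n = 5 against 5) for each gene in WT (circles) and GCN2KO cells (squares), with open symbols where the adjusted p was above 0.05. The change of AKAP12 is 3.22 in WT and 1.74 in GCN2KO cells, and FAM20C moves from -0.68 in WT to -0.041 in GCN2KO cells.

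TENM2 (ENSG00000145934, chr5:166979029-168264157, plus strand, GRCh38) encodes teneurin-2, a large adhesion protein that spans the membrane once and binds latrophilin receptors on neighboring cells. Its gene spans 1285 kb. TENM2 normalized read counts in unwounded cells were 445, 410.4, 388, 408 and 391 in the 5 WT libraries and 21.6, 15.3, 13.2, 17.7 and 17.7 in the 5 GCN2KO libraries. The means were 408 ± 22.8 and 17.1 ± 3.15, 23.9-fold apart (log2 fold change -4.56 ± 0.12, SE), and even the highest GCN2KO library, at 21.6, was far below the lowest WT library. After HDW, TENM2 counts were 347, 367, 360.4, 305 and 355 in WT and 12.5, 12.5, 11.7, 10.03 and 20.1 in GCN2KO cells. All 5 GCN2KO libraries stayed at or below 20.1, and replicate 5 was the only one above 12.5. In WT cells the HDW and unwounded libraries did not overlap, with a log2 fold change of -0.23 ± 0.063 (SE, edgeR, Benjamini-Hochberg adjusted p = 0.00670). In GCN2KO cells, where the raw counts were only 10 to 21 and 6 to 21, the groups overlapped and the change was -0.32 ± 0.23 (edgeR adjusted p = 0.327), with an interval of -0.85 to 0.21 (95%, from the SE and 8 residual degrees of freedom). A change of the size seen in WT cells was not detectable in GCN2KO cells at this depth, and the interaction was -0.10 ± 0.20 (edgeR adjusted p = 0.774).

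PLXDC2 (ENSG00000120594, chr10:19816239-20289856, plus strand, GRCh38) encodes a single-pass membrane protein with a plexin-like repeat that serves as a receptor for the secreted factor PEDF (SERPINF1). PLXDC2 normalized read counts in unwounded cells were 437, 396, 455, 438 and 436 in the 5 WT libraries and 28.4, 27.6, 36.0, 27.7 and 18.6 in the 5 GCN2KO libraries. GCN2KO libraries were again far below WT libraries. The means, 432 ± 21.8 and 27.7 ± 6.17, were 15.6-fold apart (log2 fold change -3.96 ± 0.13, SE). After HDW, PLXDC2 counts were 201, 221, 241, 162 and 194 in WT and 20.02, 13.4, 17.6, 23.4 and 16.3 in GCN2KO cells. Both genotypes had fewer PLXDC2 counts after HDW, and 8.90% ± 1.86 of the WT level remained. PLXDC2 had the lowest log2 fold change of the 8 genes after HDW in WT cells, -1.09 ± 0.086 (SE, edgeR adjusted p = 7.18e-08), with no overlap between the groups. In GCN2KO cells the change was -0.63 ± 0.21 (edgeR adjusted p = 0.0470), and the HDW libraries overlapped the unwounded ones. This call was lost without 8 of the 10 libraries left out in turn, all but GCN2KO HDW replicate 4 and GCN2KO unwounded replicate 5, with adjusted p up to 0.125 (over all alternatives 0.0152 to 0.125). The interaction was 0.44 ± 0.23 (edgeR adjusted p = 0.163).

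CMTM3 (ENSG00000140931, chr16:66603874-66613892, plus strand, GRCh38) belongs to the CKLF-like MARVEL family, multi-pass membrane proteins that take part in membrane trafficking and receptor turnover. CMTM3 normalized read counts in unwounded cells were 1075, 948, 1122, 942 and 999 in the 5 WT libraries and 108, 101, 104, 91.6 and 87.0 in the 5 GCN2KO libraries. WT cells had 10.3 times the count of GCN2KO cells (1017 ± 79.3 and 98.4 ± 8.84, log2 fold change -3.37 ± 0.089, SE), and the GCN2KO libraries lay within a narrow range. After HDW, CMTM3 counts were 800.1, 575, 718, 848 and 772 in WT and 90.9, 90.3, 77.2, 91.9 and 136 in GCN2KO cells. In the GCN2KO HDW group replicate 5 stood above the other 4, which lay between 77.2 and 91.9. CMTM3 fell in WT cells after HDW (log2 fold change -0.46 ± 0.085, SE, edgeR adjusted p = 3.53e-04) with no overlap of the libraries. In GCN2KO cells the log2 fold change was -0.0021 ± 0.15 (edgeR adjusted p = 0.994), with an interval of -0.34 to 0.34. The difference between the responses, 0.44 ± 0.17, missed the threshold (edgeR adjusted p = 0.0639) and passed it in 4 of 26 alternatives (adjusted p 0.0308 to 0.184).

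MYADM (ENSG00000179820, chr19:53864763-53876435, plus strand, GRCh38) encodes a multi-pass membrane protein with MARVEL domains that associates with lipid rafts and is known for a role in cell spreading and migration. MYADM normalized read counts in unwounded cells were 359.7, 293, 382, 341 and 378 in the 5 WT libraries and 9.09, 12.3, 5.26, 10.9 and 4.22 in the 5 GCN2KO libraries. MYADM kept the smallest share of the 8 genes. The means were 351 ± 36.2 and 8.35 ± 3.50, 42.0-fold apart (log2 fold change -5.44 ± 0.18, SE), and the raw counts in GCN2KO libraries were 5 to 13. After HDW, MYADM counts were 614, 515, 538, 563 and 594 in WT and 16.7, 4.18, 10.1, 8.36 and 10.5 in GCN2KO cells. The difference was wider than in unwounded cells, with WT at 56.7 times the GCN2KO mean and 1.76% ± 0.799 remaining. By fitted log2 fold change 1 of 15348 genes tested was lower than MYADM in unwounded cells and 0 of 15855 after HDW. With HDW, WT cells gained MYADM RNA, a log2 fold change of 0.68 ± 0.070 (SE, adjusted p = 1.23e-06 by edgeR), and every HDW library was above every unwounded one. In GCN2KO cells, with 5 to 20 raw counts after HDW, the change was 0.35 ± 0.38 (edgeR adjusted p = 0.532) and the interval, -0.53 to 1.22, includes both 0 and the change seen in WT cells. The interaction, -0.34 ± 0.35, did not pass (edgeR adjusted p = 0.525).

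PLTP (ENSG00000100979, chr20:45898621-45912155, minus strand, GRCh38) encodes phospholipid transfer protein, a secreted protein that moves phospholipids between lipoprotein particles. PLTP normalized read counts in unwounded cells were 4346, 4199, 4172, 4048 and 4229.6 in the 5 WT libraries and 796, 653, 623, 661 and 599 in the 5 GCN2KO libraries. The WT mean of 4199 ± 107 was 6.30 times the GCN2KO mean of 666 ± 76.6 (log2 fold change -2.65 ± 0.078, SE). After HDW, PLTP counts were 3968, 3457, 3688, 3791 and 3919.9 in WT and 529, 617, 552, 655 and 677 in GCN2KO cells. The share that remained, 16.1% ± 1.71, was close to that in unwounded cells. After HDW the WT counts were slightly lower without overlap (log2 fold change -0.16 ± 0.039, SE, edgeR adjusted p = 0.00308). This call was lost when all 20 samples were fitted together (adjusted p = 0.0713) and held in the other 16 alternatives (lowest adjusted p 4.11e-04). In GCN2KO cells the change was -0.13 ± 0.095 (edgeR adjusted p = 0.343). The interval of the interaction, the difference between the HDW responses of the genotypes, was -0.19 to 0.23.

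MELTF (ENSG00000163975, chr3:196980590-197029835, minus strand, GRCh38) encodes melanotransferrin, an iron-binding transferrin relative with a glycosylphosphatidylinositol anchor. MELTF normalized read counts in unwounded cells were 2071, 1989.7, 2024, 1803 and 1885 in the 5 WT libraries and 423, 388, 346, 445 and 384 in the 5 GCN2KO libraries. The means of 1955 ± 109 and 397 ± 38.2 were 4.92-fold apart (log2 fold change -2.29 ± 0.078, SE). After HDW, MELTF counts were 3573, 2993, 3169, 3586 and 3520.3 in WT and 565, 532, 479.7, 453 and 479.8 in GCN2KO cells. Both genotypes had more MELTF counts after HDW, and the share that remained was 14.9% ± 1.35. MELTF rose in both genotypes, by a log2 value of 0.79 ± 0.055 in WT cells (adjusted p = 1.99e-08 by edgeR) and by 0.35 ± 0.088 in GCN2KO cells (edgeR adjusted p = 0.0134), with no overlap between HDW and unwounded libraries in either. The rise was smaller in GCN2KO cells (interaction -0.44 ± 0.10, edgeR adjusted p = 0.00262).

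FAM20C (ENSG00000177706, chr7:192571-260772, plus strand, GRCh38) encodes the Golgi kinase that phosphorylates many secreted proteins, caseins and mineralization proteins among them. FAM20C normalized read counts in unwounded cells were 2371, 2256, 2232, 2189 and 2179 in the 5 WT libraries and 343, 231, 209.6, 227 and 247 in the 5 GCN2KO libraries. WT cells had 8.92 times the GCN2KO count (2245 ± 76.8 and 252 ± 52.9, log2 fold change -3.16 ± 0.11, SE). Replicate 1 was the highest GCN2KO library, and the other 4 lay between 209.6 and 247. After HDW, FAM20C counts were 1480.4, 1377, 1447, 1369 and 1335 in WT and 226, 256, 234, 204 and 286 in GCN2KO cells. The WT level was lower than before wounding and the GCN2KO level overlapped that of unwounded cells, and the share that remained was 17.2% ± 2.23 as against 11.2% ± 2.36. FAM20C fell in WT cells at a log2 fold change of -0.68 ± 0.038 (adjusted p = 1.90e-09 by edgeR), with no overlap. In GCN2KO cells the change was -0.041 ± 0.13 (edgeR adjusted p = 0.850) and the libraries overlapped. The responses differed by 0.63 ± 0.13 (edgeR adjusted p = 0.00106), the sole interaction of the 8 genes that was positive and passed.

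AKAP12 (ENSG00000131016, chr6:151239967-151358559, plus strand, GRCh38) encodes gravin, a scaffold that holds protein kinases A and C at the plasma membrane and is known as a regulator of the cytoskeleton. AKAP12 normalized read counts in unwounded cells were 179, 148, 139, 135 and 159 in the 5 WT libraries and 28.4, 42.9, 19.3, 66.4 and 23.6 in the 5 GCN2KO libraries. Its GCN2KO libraries were widely spread, with replicates 4 and 2 highest and 3 and 5 lowest. Over genes with a mean of at least 50 counts, the chi-square per gene between 2 libraries followed the same split. It was 8.17 between GCN2KO unwounded replicates 2 and 4, 10.3 between 3 and 5, and 51.5 to 62.1 between these pairs. The part of this split in the AKAP12 counts was not tested. The means were 152 ± 17.7 and 36.1 ± 19.1 (log2 fold change -2.06 ± 0.24, SE), and the lowest WT library was 2.03 times the highest GCN2KO library. After HDW, AKAP12 counts were 1614, 1019.6, 1076, 1786 and 1491 in WT and 134, 129.7, 93.1, 97.0 and 141 in GCN2KO cells. The WT mean rose to 1397 ± 336 and the GCN2KO mean to 119 ± 22.2, so every GCN2KO HDW library was above the GCN2KO unwounded ones but 8.51% ± 1.59 of the WT HDW level was reached. The fold change after HDW was 9.29 in WT cells (log2 3.22 ± 0.17, SE, edgeR adjusted p = 9.00e-10) and 3.34 in GCN2KO cells (log2 1.74 ± 0.27, edgeR adjusted p = 9.95e-04). The interaction was -1.48 ± 0.33 (edgeR adjusted p = 0.00205). Wounded GCN2KO cells, at 93.1 to 141, overlapped the 135 to 179 of WT cells that had not been wounded.

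**Figure D3:**
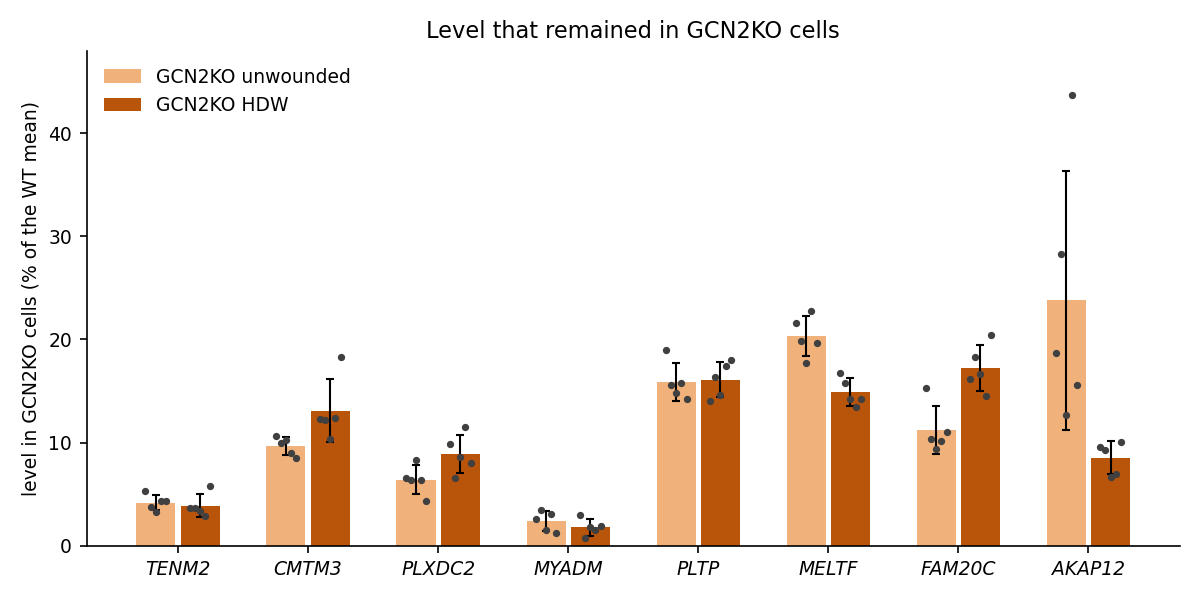
Normalized read count of each gene in GCN2KO cells as a percent of the WT mean of the same state, with bars at the mean, error bars of 1 SD and points for the 5 GCN2KO libraries. MYADM is lowest in both states (2.38% and 1.76%), and AKAP12 has the widest spread in unwounded cells, 12.7% to 43.7%.

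Levels were compared between genes per kilobase of exon. The length was that of all annotated exons of a gene merged, not of 1 transcript (2.54 kb for PLTP, 14.8 kb for MELTF). The order and ranks given here depend on this length. In WT unwounded cells the order was PLTP at 57.4 ± 1.47 CPM (counts scaled to library size) per kb (mean ± SD, n = 5), FAM20C, CMTM3, MELTF, MYADM, PLXDC2, TENM2 and AKAP12 at 0.602 ± 0.0702, and only the last pair overlapped. In GCN2KO unwounded cells the order was PLTP (9.11 ± 1.05), FAM20C (1.73 ± 0.364), CMTM3 (1.10 ± 0.0984), MELTF (0.932 ± 0.0897), AKAP12 (0.143 ± 0.0757), PLXDC2 (0.0765 ± 0.0171), MYADM (0.0676 ± 0.0283) and TENM2 (0.0279 ± 0.00514). Neighbors in this order overlapped between CMTM3 and MELTF and from AKAP12 down to TENM2. PLTP in GCN2KO cells was still above 74.4% of the 16387 genes ranked per kb, and FAM20C above 40.6%, CMTM3 above 33.7% and MELTF above 31.7%. AKAP12 was above 9.32% of them, PLXDC2 above 4.58%, MYADM above 3.75% and TENM2 above 1.04%. In WT unwounded cells MYADM had been above 48.7% of genes, PLXDC2 above 34.6%, TENM2 above 26.9% and AKAP12 above 25.6%.

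Some reads of these genes could belong to overlapping genes, because the strand setting of the counting is not given in the sources used here. CTSA, which encodes a lysosomal carboxypeptidase, shares 329 exonic bases with PLTP on the other strand (12.9% of PLTP's exonic bases). CTSA moved opposite to PLTP, with 4568 ± 46.1 normalized counts in WT unwounded and 7028 ± 539.8 in GCN2KO unwounded cells. MELTF-AS1, an antisense RNA over 3.45% of MELTF's exonic bases, was lower with MELTF, at log2 fold changes of -0.77 ± 0.24 unwounded (edgeR adjusted p = 0.00884) and -0.91 ± 0.15 after HDW (edgeR adjusted p = 1.14e-04). The pseudogene RPSAP69, within 5.96% of MELTF's exonic bases on the same strand, had no library above 3.38 normalized counts. ENSG00000232220, a long noncoding RNA over 9.84% of MYADM's exonic bases, had 0 counts in all 20 libraries. A noncoding RNA over 0.318% of PLXDC2's exonic bases is not in the count tables used here.

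Among their nearest genes, those called lower with the 8 genes were about as frequent as in the whole table. Of the 5 nearest protein-coding genes on each side of each gene (75 in all, since FAM20C lies near a chromosome end), 54 were tested in unwounded cells and 3 were lower in GCN2KO cells by the same rule of fold change and adjusted p (5.56%), against 8.22% of all genes. After HDW 57 were tested and 5 were lower (8.77%, against 7.83%). Higher neighbors numbered 4 in unwounded cells and 3 after HDW, against 8.21% and 7.10% of all genes. By adjusted p alone 20 of 54 and 23 of 57 were lower (37.0% and 40.4%), where 33.1% and 35.8% of all genes were. PIGZ, beside MELTF, and MMP9 and SLC12A5, both beside PLTP, were lower in both states. CMTM3, PLXDC2, MYADM, FAM20C and AKAP12 had no neighbor called lower in either state. Over a wider span, within 1 Mb and with genes of all kinds counted, 4 of 16 tested genes near FAM20C were lower in each state, where 7.66% of chromosome 7 was unwounded and 6.67% after HDW. Near CMTM3, 5 of 38 were lower unwounded and 7 of 40 after HDW, where 8.40% and 8.31% of chromosome 16 were. PLTP had 5 of 37 and 6 of 40, MYADM 3 of 29 and 3 of 30, MELTF 2 of 29 and 1 of 30, and TENM2, PLXDC2 and AKAP12 had 0 of 7, 1 and 10 in each state. These shares were not tested.

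**Figure D4:**
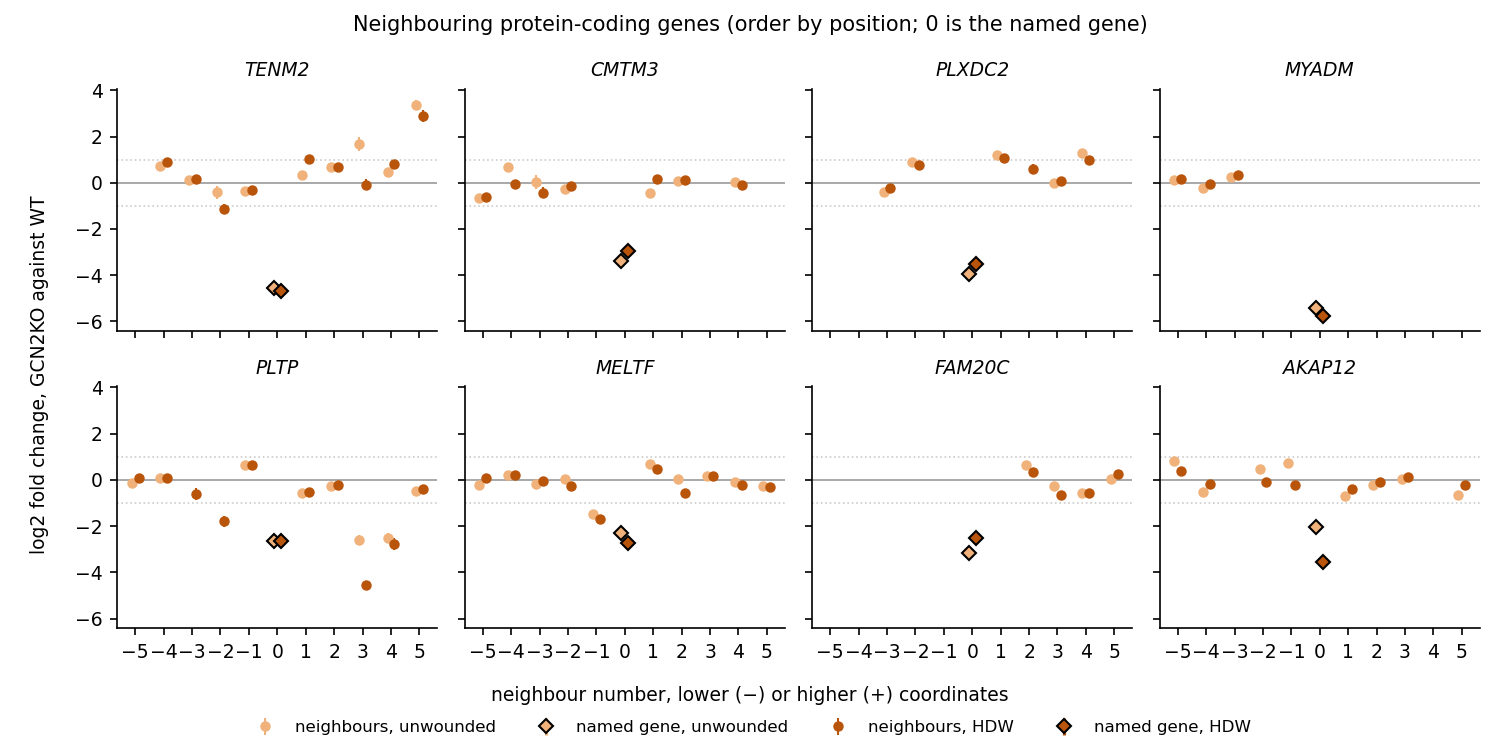
Log2 fold change of GCN2KO against WT cells (± SE) for the tested neighbors of each gene, by their order along the chromosome, with diamonds for the gene itself at 0 and dotted lines at the fold threshold. Most neighbors lie near 0 while the named gene lies far below, and the lowest points beside PLTP are MMP9 (-2.61 unwounded, -4.55 after HDW) and SLC12A5.

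MMP9, a gelatinase that keratinocytes release at wounds, lies 96.8 kb from PLTP. Its normalized counts were 117 ± 22.1 in unwounded and 735 ± 162 in wounded WT cells, but 18.8 ± 6.10 and 30.8 ± 6.62 in the same GCN2KO cells. Its genotype difference on the log2 scale was -2.61 ± 0.21 without wounding (SE, edgeR adjusted p = 1.91e-08) and, after HDW, -4.55 ± 0.19 (edgeR adjusted p = 2.88e-10). SLC12A5, a potassium-chloride cotransporter known from neurons, is 109.5 kb from PLTP and had log2 fold changes of -2.51 ± 0.22 and -2.76 ± 0.26 (edgeR adjusted p = 5.95e-08 and 2.97e-07). The genes next to PLTP moved by less. CTSA, which overlaps it, was at 0.63 ± 0.064, and PCIF1, the nearest on the other side at 22.5 kb and a methyltransferase of mRNA caps, was at -0.59 ± 0.073 in unwounded cells. NEURL2, 7.41 kb away, was called lower after HDW (-1.80 ± 0.26, edgeR adjusted p = 2.16e-05) and had too few counts to be tested in unwounded cells.

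PIGZ, a mannosyltransferase of glycosylphosphatidylinositol anchors, is the nearest gene below MELTF at 11.5 kb. It had 96.6 ± 14.3 normalized counts in WT unwounded and 34.3 ± 5.49 in GCN2KO unwounded cells (log2 fold change -1.49 ± 0.16, SE, edgeR adjusted p = 4.05e-07). After HDW its log2 fold change was -1.69 ± 0.14 (edgeR adjusted p = 1.47e-07). On the other side DLG1, a junctional scaffold 12.7 kb from MELTF, was at 0.70 ± 0.059 and 0.49 ± 0.041. CMTM4, of the same family as CMTM3 and 0.858 kb from it, was at -0.46 ± 0.095 unwounded and 0.14 ± 0.040 after HDW, and CMTM1, the nearest tested on the other side, at -0.28 ± 0.20 and -0.15 ± 0.15. Neither relative beside CMTM3 reached the fold threshold.

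AKAP12 lies 5.56 kb from ZBTB2, a zinc finger repressor, which was at -0.71 ± 0.079 unwounded and -0.41 ± 0.048 after HDW. On its other side MTHFD1L, a mitochondrial enzyme of one-carbon metabolism, was at 0.73 ± 0.076 and -0.23 ± 0.063. PDGFA, a growth factor and the nearest tested neighbor of FAM20C at 236 kb, was at 0.66 ± 0.078 and 0.36 ± 0.10. MYADM had 3 tested neighbors of 10, all zinc finger genes on 1 side, of which the nearest, ZNF331 at 284 kb, was at 0.25 ± 0.080 and 0.33 ± 0.059. The genes next to MYADM had too few counts to be tested, so whether they share its loss was not detectable.

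Around PLXDC2 and TENM2 the called neighbors were mostly higher, opposite to the genes themselves. NEBL, an actin-binding protein of the nebulin family 490.1 kb from PLXDC2, was higher in both states (1.18 ± 0.097 and 1.06 ± 0.14, edgeR adjusted p = 2.52e-08 and 9.03e-06). WWC1, which encodes the Hippo pathway protein KIBRA and lies 27.5 kb from TENM2, was at 0.33 ± 0.10 unwounded and higher after HDW (1.04 ± 0.053, edgeR adjusted p = 1.41e-09). MAT2B, the nearest tested gene on the other side, is 3459 kb away and was at -0.34 ± 0.084 and -0.30 ± 0.039. The remaining called neighbors here were picked out after their values were seen. SLIT3, 398 kb from TENM2, was higher in both states (3.38 ± 0.21 and 2.88 ± 0.26). FBLL1, 265 kb from TENM2, and DNAJC1, 1467 kb from PLXDC2, were called higher in unwounded cells. HMMR, as far as 3487 kb from TENM2, was lower after HDW (-1.13 ± 0.21). Its normalized counts were then 34.9 ± 5.44 in WT and 16.4 ± 5.13 in GCN2KO cells. The median log2 fold change over the 694 other tested genes of chromosome 5 unwounded and 720 after HDW, where TENM2 lies, was 0.35 in unwounded cells and 0.36 after HDW, against 0.0042 and 0.0020 over all genes. On the chromosomes of the other 7 genes it was between -0.0938 and 0.0629. The part of this chromosome-wide level in the TENM2 neighbors was not tested.

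Relatives and partners of the 8 genes were called in both directions. The lists were chosen with earlier results of these data known, and their counts stand against 8.21% higher and 8.22% lower of all genes unwounded and 7.10% and 7.83% after HDW. Of the 9 teneurins, latrophilins and FLRT proteins listed beside TENM2, 7 were tested unwounded, of which 2 were higher and 2 lower in GCN2KO cells (median log2 fold change -0.23), and after HDW 2 higher and 1 lower of 8 (median -0.27). TENM4, a second teneurin, was lower unwounded (-1.60 ± 0.17, SE, edgeR adjusted p = 3.89e-07) and at -0.59 ± 0.24 after HDW. Of the latrophilins ADGRL1 was lower (-1.48 ± 0.11, edgeR adjusted p = 9.34e-09) and ADGRL2 higher (1.75 ± 0.10, edgeR adjusted p = 4.97e-10), while FLRT3, a latrophilin partner, was at -0.27 ± 0.060. For PLXDC2, of 4 genes listed 3 were tested unwounded, of which 0 were higher and 1 lower in GCN2KO cells (median log2 fold change -0.62), and after HDW 0 higher and 1 lower of 3 (median -0.35). NID1, a basement membrane glycoprotein, was the lower one (-1.33 ± 0.12, edgeR adjusted p = 5.33e-08), and SERPINF1, the gene of PEDF, was at -0.62 ± 0.16.

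Of the 17 MARVEL-domain genes listed beside CMTM3 and MYADM, 13 were tested unwounded, of which 2 were higher and 1 lower in GCN2KO cells (median log2 fold change -0.006), and after HDW 1 higher and 2 lower of 13 (median -0.15). MARVELD1 was lower in both states (-2.31 ± 0.090 and -2.01 ± 0.095, edgeR adjusted p = 9.15e-12 and 7.95e-10), from 4572 ± 149 to 921 ± 138 normalized counts unwounded. The tight junction protein OCLN was higher unwounded (1.47 ± 0.084, edgeR adjusted p = 4.26e-10), as was PLLP (1.40 ± 0.15), while the apical transport protein MAL2 was at 0.91 ± 0.066. Of the 13 genes of lipid transfer and of the lipid-sensing liver X receptors beside PLTP, 10 were tested unwounded, of which 1 were higher and 1 lower in GCN2KO cells (median log2 fold change 0.034), and after HDW 0 higher and 2 lower of 10 (median 0.27). APOE, a lipoprotein component, was lower in both states (-1.73 ± 0.22 and -2.15 ± 0.18, edgeR adjusted p = 4.23e-06 and 1.08e-07). Its normalized counts were low, 79.5 ± 25.2 in WT and 22.5 ± 4.76 in GCN2KO unwounded cells. NR1H3, which encodes a liver X receptor, was higher unwounded (1.46 ± 0.15, edgeR adjusted p = 4.31e-07). Some other genes of this list also lay above 0 without reaching the fold threshold. Their log2 fold changes were 0.78 ± 0.087 and 0.64 ± 0.089 unwounded, and 0.48 ± 0.091 and 0.21 ± 0.039 after HDW.

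Of the 10 transferrin family and iron genes beside MELTF, 8 were tested unwounded, of which 2 were higher and 1 lower in GCN2KO cells (median log2 fold change -0.10), and after HDW 2 higher and 2 lower of 8 (median 0.19). The iron exporter SLC40A1 was lower in both states (-1.74 ± 0.14 and -1.80 ± 0.15, edgeR adjusted p = 1.69e-08 and 1.29e-07). The transferrin receptor TFRC was higher (1.40 ± 0.068 and 2.04 ± 0.094, edgeR adjusted p = 8.21e-11 and 6.41e-10), and so was the ferritin light chain FTL (1.17 ± 0.078 and 1.17 ± 0.095). Of the secretory pathway kinases beside FAM20C, 7 were tested unwounded, of which 0 were higher and 1 lower in GCN2KO cells (median log2 fold change 0.0043), and after HDW 0 higher and 2 lower of 8 (median -0.10). FJX1 was the lower one unwounded (-1.61 ± 0.14, edgeR adjusted p = 6.26e-08), and FAM20B, a xylose kinase and close relative of FAM20C, was at 0.19 ± 0.055. Of the A-kinase anchoring proteins and protein kinase A subunits beside AKAP12, 14 were tested unwounded, of which 1 were higher and 0 lower in GCN2KO cells (median log2 fold change 0.016), and after HDW 1 higher and 0 lower of 14 (median 0.22). AKAP6 was the higher one (1.80 ± 0.13 and 2.14 ± 0.18, edgeR adjusted p = 6.07e-09 and 9.42e-08), and AKAP1, a mitochondrial anchor, was at -0.75 ± 0.089.

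Among the 16535 other genes, profiles over the 20 libraries were compared by the root mean square distance of log2 CPM from the WT unwounded mean, as a description, since the same genotype difference chose the genes. The closest genes to TENM2 were MGMT (0.325), C1R (0.451) and CLCA4 (0.550), and to PLXDC2 KCND2 (0.478), C1R (0.487) and GALNT12 (0.491). CMTM3 was closest to MATN2 (0.204), EFNB3 (0.227) and FAM20C (0.247), and FAM20C to WNT10A (0.224), LFNG (0.227) and S1PR5 (0.228). For MYADM the closest were TENM2 (0.704), CLCA4 (0.711) and MGMT (0.799), for PLTP FCGRT (0.142), ALDH2 (0.149) and MRC2 (0.192), for MELTF COL4A2 (0.257), TMEM200B (0.271) and PTPRZ1 (0.276) and for AKAP12 TFPI2 (0.662), E2F1 (0.697) and DTL (0.747). Among the 8 themselves, CMTM3 and FAM20C were closest (0.247) and PLXDC2 and AKAP12 furthest apart (3.11). C1R, a complement protease, had means of 6195 normalized counts in WT and 414 in GCN2KO unwounded cells. COL4A2, a basement membrane collagen with the profile nearest to MELTF, went from 2029.6 to 3519 after HDW in WT cells and from 352 to 624 in GCN2KO cells. TFPI2, a protease inhibitor and the gene nearest to AKAP12, went from 392 to 2116 in WT cells and from 140.3 to 209.9 in GCN2KO cells.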

How the data were processed

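Total RNA of 20 samples was sequenced, and the authors trimmed reads with Trimmomatic, aligned them to GRCh38 with STAR and deposited featureCounts read counts per gene, 1 table per sample, as raw whole numbers. They used DESeq2 for their own tests. The strand setting and annotation release of their counting are not given in the sources used here. Gene names, exons and coordinates came from GENCODE release 44, which held 56410 of the 57500 identifiers. Low counts were filtered with filterByExpr (minimum count 10, minimum total 15) in each comparison. Tests used edgeR 4.0.16 (quasi-likelihood, TMM normalization, limma 3.58.1, R 4.3.3) with Benjamini-Hochberg adjustment over all genes tested. "Passed" means an adjusted p of at most 0.05, and genes called higher or lower between genotypes also had a log2 fold change of at least 1. Groups followed the sample labels, and 10 samples entered each comparison of 2 groups and 20 the interaction. The genes and lists were chosen with earlier results of these data known. Named genes were the 8 themselves, EIF2AK4, the nearest tested neighbor on each side, neighbors lower in both states, overlapping genes, the 3 nearest profiles (log2 CPM with a prior count of 2) and up to 4 genes per list with the smallest adjusted p. Others were named after their values were seen, and 2 genes under this rule or the marker lists are not reported here. The steps were tested on simulated counts. Libraries of 1 group differed by a chi-square of 2.68 to 62.1 per gene, so none was a copy of another. The highest value was within GCN2KO unwounded, where replicates 2 and 4 stood apart from 3 and 5. Alternatives included DESeq2 1.42.0, other scalings and filters, a replicate block and leaving out each library. RefSeq (GRCh38.p14) gave the sequences. Protein sequences were not used here.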

Additional observations from a re-analysis of the deposited data

Results flagged for a closer look

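In 3 of 32 groups of 5 libraries examined for a sample far from the others, 1 library stood apart by Dixon's criterion, which chance meets in about 1 in 20 groups. TENM2 had 20.1 normalized counts in GCN2KO HDW replicate 5, where the other 4 libraries of the group had 10.03 to 12.5. CMTM3 was at 136 in that same library, against 77.2 to 91.9 in the rest. That library also stood apart over genes with a mean of at least 50 counts. GCN2KO HDW replicate 5 differed from replicates 1 to 4 by a chi-square of 19.7 to 51.3 per gene, and those differed from each other by 2.81 to 8.41. FAM20C was at 343 in GCN2KO unwounded replicate 1, against 209.6 to 247 in the rest. All 3 values remained far below every WT library.

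For 3 genes the response to HDW differed between genotypes in a test of the difference itself (edgeR, Benjamini-Hochberg adjusted). The GCN2KO response minus the WT response on the log2 scale was -1.48 ± 0.33 for AKAP12 (SE, adjusted p = 0.00205), -0.44 ± 0.10 for MELTF (adjusted p = 0.00262) and 0.63 ± 0.13 for FAM20C (adjusted p = 0.00106). Each passed in 26 of 26 alternatives, which reuse the same libraries. Of the 16536 genes tested for this interaction, 11.2% were higher and 12.5% lower. The genes were chosen on the difference between genotypes, so this test is not fully independent of the choice.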

How the results depend on the processing

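The level that remained, as a percent of WT, moved by less than 1 SD between libraries for all 8 genes under the other scalings, the median and each library left out. With a log2 fold change of at least 1 also asked of the HDW response, the counts of genes that rose and fell went from 3 and 5 to 1 and 1 in WT cells, from 2 and 1 to 1 and 0 in GCN2KO cells, and from 1 and 2 to 0 and 1 for the interaction. The fall of PLXDC2 in GCN2KO cells was lost, leaving 0 genes lower, under DESeq2, with no filter and with the replicate block, and 0 to 1 were lower with 1 library left out. With a mean of at least 50 counts 0 genes were lower as well, because PLXDC2 was filtered out and not tested. The interaction counted 2 genes higher, CMTM3 added, with library size alone and with no filter, and 1 to 2 with 1 library left out (2 without GCN2KO HDW replicate 3 or WT HDW replicate 4). Neighbors lower in unwounded GCN2KO cells went from 3 to 20 by adjusted p alone and to 5 with 10 genes per side, and after HDW from 5 to 23, to 8, and to 2 with a mean of at least 50 counts, where fewer were tested. Over all genes, 1880 rose after HDW in GCN2KO cells (1183 to 2332 with 1 library left out) and 1706 fell (887 to 2185, and 2840 with all 20 samples in 1 fit). These counts moved by over 1.5 times without GCN2KO HDW replicate 2 (1187 and 950), GCN2KO HDW replicate 3 (1183 and 887) or GCN2KO unwounded replicate 5 (1245 and 972), and the count that fell also without GCN2KO HDW replicate 1 (1074). With a mean of at least 50 counts the genes lower in GCN2KO cells went from 1261 to 834 unwounded and from 1242 to 765 after HDW, and those higher from 1260 to 796 and from 1126 to 563, fewer genes being tested. With no filter the higher genes were 2132 and 1950, and DESeq2 gave 1737 higher after HDW. Where not stated, the cause was not tested. Changes near 0 turned sign: CMTM3 after HDW in GCN2KO cells was 0.012 with library size alone (-0.16 to 0.076 with 1 library left out), FAM20C there -0.11 to 0.093, and the PLTP interaction -0.027 to 0.088. Of the other HDW responses of single genes, 444 kept direction and side of the threshold, 4 passed it and 12 no longer did, 11 of these PLXDC2 in GCN2KO cells and 1 PLTP in WT cells.

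Same-numbered samples of different groups showed no shared deviation (mean correlation -0.109 to 0.0332 over the 6 pairs of groups). This cannot exclude that they were prepared together, since the sources used here do not say how the replicates were made. In the fit with a replicate block, 1239 genes rose and 882 fell after HDW in GCN2KO cells, as against 1880 and 1706, PLXDC2 was lost there, and no other call on the 8 genes changed. Counts near 10 limit what can be said of MYADM, TENM2 and PLXDC2 in GCN2KO cells. A bulk level does not say how many cells of the edited pool keep a gene. Where starts lie and which strand was read were not examined.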
